A study of Homo sapiens with 3 samples.

Results

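KDM1A, RCOR1, RCOR3, REST, HDAC1, HDAC2, PHF21A and HMG20B encode the histone demethylase LSD1, its CoREST scaffolds, the repressor REST and the subunits that act with them. These 8 genes were taken from the 18132 genes with a probe set of their own by exact match of the platform's gene symbol, which gave 25 of 49293 probe sets. They were measured in KYSE180, an oesophageal squamous cell carcinoma line, with 1 oligonucleotide array for each of 3 groups. The first group was transfected with LZRS_HOTAIR, a vector for the long non-coding RNA HOTAIR (delivered with Polyfect), and the next with a mixture of siRNAs against HOTAIR (100 pmol, delivered with Lipofectamine2000), with RNA taken 48 h after transfection. The third was labelled as control, and its labels do not say if it was mock-treated, given an empty vector or given the negative-control siRNA named in the design. Reagent and type of nucleic acid both differed between the arms. The source name of the siRNA sample refers to a HOTAIR cell line, while its title and cell line field name KYSE180, which was taken for all 3 samples.

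LSD1, encoded by KDM1A, removes methyl groups from histone tails and needs a CoREST protein to act on nucleosomes. CoREST joins LSD1 to the histone deacetylases HDAC1 and HDAC2, with BHC80 (PHF21A) and BRAF35 (HMG20B) as further subunits, and REST brings this assembly to neuronal genes that it silences in non-neuronal cells. HOTAIR has been described as a scaffold that binds the repressive complex PRC2 at its 5' end and LSD1 with CoREST and REST at its 3' end, which is the reason to look at these genes when HOTAIR is altered.

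Values are log2 probe set signals as deposited. Each gene takes its values from the probe set that was brightest on average over the 3 arrays, and was kept where that average reached 5.28, the median of all probe set means; all 8 genes and 19 of their 25 probe sets reached it. Because each group had 1 array, differences could not be checked against replicates and no test was made. The number of arrays limits the precision. Error between arrays or cultures could not be measured, only the spread between probe sets of a gene on the same arrays. Pooled over 5982 genes, this SD (log2) was 0.36 in vector minus control, 0.39 in siRNA minus control and 0.21 in vector minus siRNA. HOTAIR had 0 named probe sets, so neither transfection was checked by its target. The control array stood apart: of 10917 genes kept, vector cells had 1662 above control and 224 below it by 2-fold (1444 and 518 after repeated quantile normalization), and siRNA cells had 1623 above and 202 below (1472 and 408), against 189 and 202 between the arms. Cyclic loess gave 1896 above and 117 below in vector cells, and 1984 and 65 in siRNA cells. Centring gave 1978 and 105 in vector cells, and 1955 and 72 in siRNA cells. Both comparisons with control share the control array. Of the squamous markers, 7 of 10 were measured and all 7 lay above the array median on each array (8.82 to 13.38), while 0 of 12 measured fibroblast and leukocyte markers did. Endothelial markers had 0, 0 and 1 of 5 above it in vector, siRNA and control cells, and 3 of 7 glandular markers, KRT8, KRT18 and CDX2, were above it on each array.

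None of the 8 genes differed 2-fold in any comparison. The shares of all genes kept that differed at least 2-fold in either direction were 17.3% in vector minus control, 16.7% in siRNA minus control and 3.58% between the arms, so a count of 0 among 8 genes is not far from the background. At 1.5-fold, HDAC2 lay above and HMG20B below control in vector cells, beside 22.9% of all genes higher and 19.4% lower (42.3% in either direction). In siRNA cells HDAC2 alone of the 8 was past 1.5-fold, above control, beside 22.8% of all genes (40.8% in either direction). Between the arms 0 of the 8 genes passed 1.5-fold, where 9.68% of all genes did. The 8 genes had a median log2 difference of 0.18 in vector minus control, -0.18 in siRNA minus control and 0.13 between the arms, and the medians of all genes kept were -0.18, -0.17 and 0.014 in the same order. Cyclic loess turned the siRNA minus control median of the 8 genes to 0.042, and the mean over probe sets turned their vector minus control median to -0.079, with 7 genes kept. In bulk RNA, fewer cells that express a gene and less of its RNA per cell cannot be told apart.

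**Figure D1:**
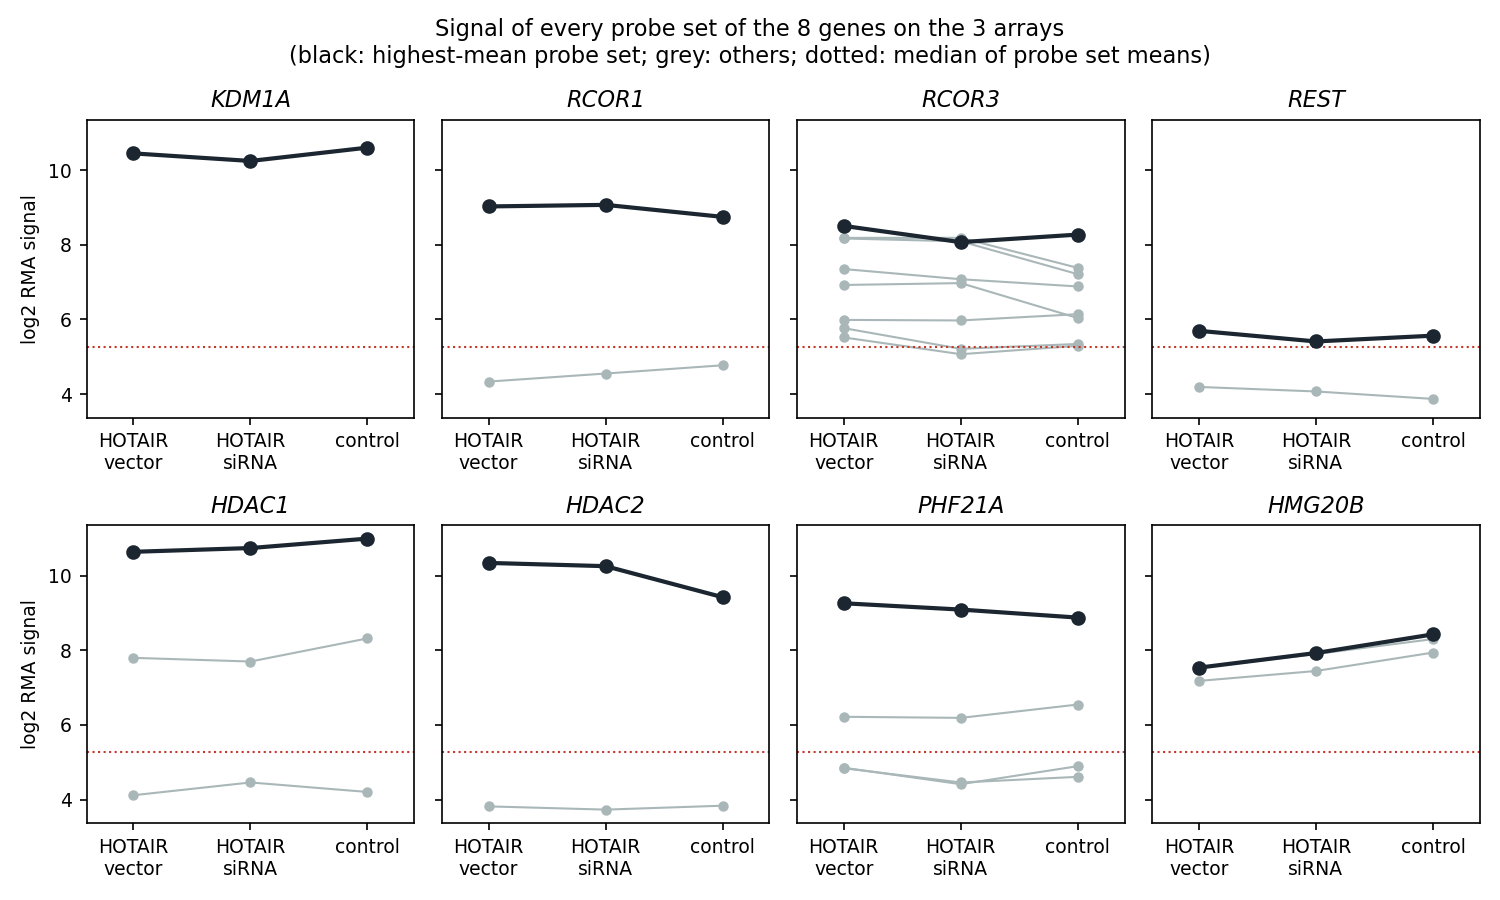
Log2 RMA signal (vertical axis) of each of the 25 probe sets of the 8 genes on the HOTAIR vector, HOTAIR siRNA and control arrays (horizontal axis), with 1 array per group and so no error bars. The highest-mean probe set of each gene is black; for HDAC2 it is lowest in control cells, for HMG20B it is highest there, and the dotted line is the filter level of 5.28.

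The gene of the enzyme itself differed by at most 0.36 (log2) between any pair of arrays. KDM1A had log2 signals of 10.45 in vector, 10.24 in siRNA and 10.60 in control cells on its only probe set. The order ran from control down to siRNA cells, with a difference of -0.15 (vector minus control), -0.36 (siRNA minus control) and 0.20 (vector minus siRNA). Each was within 1 SD of the spread between probe sets pooled over other genes, which holds no error between arrays. Of all genes kept, 86.3% were at least as far from 0 in vector minus control and 65.9% in siRNA minus control. After centring on the median of all genes the vector minus control value turned to 0.029, so its direction is not fixed. The name of this probe set ends in _s_at, an ending for probes that match several transcripts.

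The CoREST scaffolds RCOR1 and RCOR3 link LSD1 to the deacetylases and to nucleosomes. RCOR1 had log2 signals of 9.03 in vector, 9.07 in siRNA and 8.75 in control cells on its bright probe set, with differences of 0.28 and 0.32 from control and -0.042 between the arms. Its other probe set had 4.34, 4.55 and 4.77 in the same order, below the filter level, with a difference of -0.44 for vector minus control, so the mean over both was -0.079 there. The bright probe set put the control lowest and the dim one put it highest.

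RCOR3 was measured by 8 probe sets, more than any other of these genes, and they did not give 1 answer. Its brightest probe set had log2 signals of 8.51 in vector, 8.07 in siRNA and 8.27 in control cells, so that the control lay between the arms. On this probe set the differences were 0.23 for vector minus control and -0.20 for siRNA minus control. Over the 8 probe sets the mean difference was 0.48 ± 0.38 (SD) for vector minus control and 0.26 ± 0.52 for siRNA minus control, with 7 and 4 probe sets above 0. The probe sets fell apart in a way noticed after their values were seen. For 3 of them the differences from control were 0.80 to 0.96 in vector and 0.80 to 0.94 in siRNA cells, near 2-fold in both arms. For the other 5, the brightest among them, they were -0.15 to 0.47 in vector and -0.22 to 0.19 in siRNA cells. The names of all 3 end in _s_at or _x_at, as do those of 2 of the other 5. Between the arms the 3 probe sets differed by -0.050 to 0.077, and the other 5 by 0.015 to 0.55, with the brightest at 0.43. A difference of 0.43 or more between the arms was shown by 15.7% of all genes kept. The platform's annotation lists 1 source sequence for each probe set. Of the 3 probe sets, 2 share theirs, and none of the other 5 has a source sequence in common with the 3. Which RCOR3 transcripts each probe set detects was not analysed.

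REST, the DNA-binding repressor, had signals just above the filter level. Its log2 signals were 5.70 in vector, 5.41 in siRNA and 5.57 in control cells, and its other probe set had 4.19, 4.07 and 3.87. The siRNA array was lowest on the brighter probe set and the control array on the dimmer one, while vector cells were highest on both. The vector minus siRNA difference was 0.28 on the brighter probe set and 0.12 on the other, and 30.5% of all genes kept were at least as far from 0 as the first. The siRNA minus control difference was -0.15 on the brighter probe set and turned to 0.022 with the mean over probe sets, 0.13 after cyclic loess and 0.015 after centring. RMA compresses differences near the background, so a difference in REST of this brightness may be understated.

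**Figure D2:**
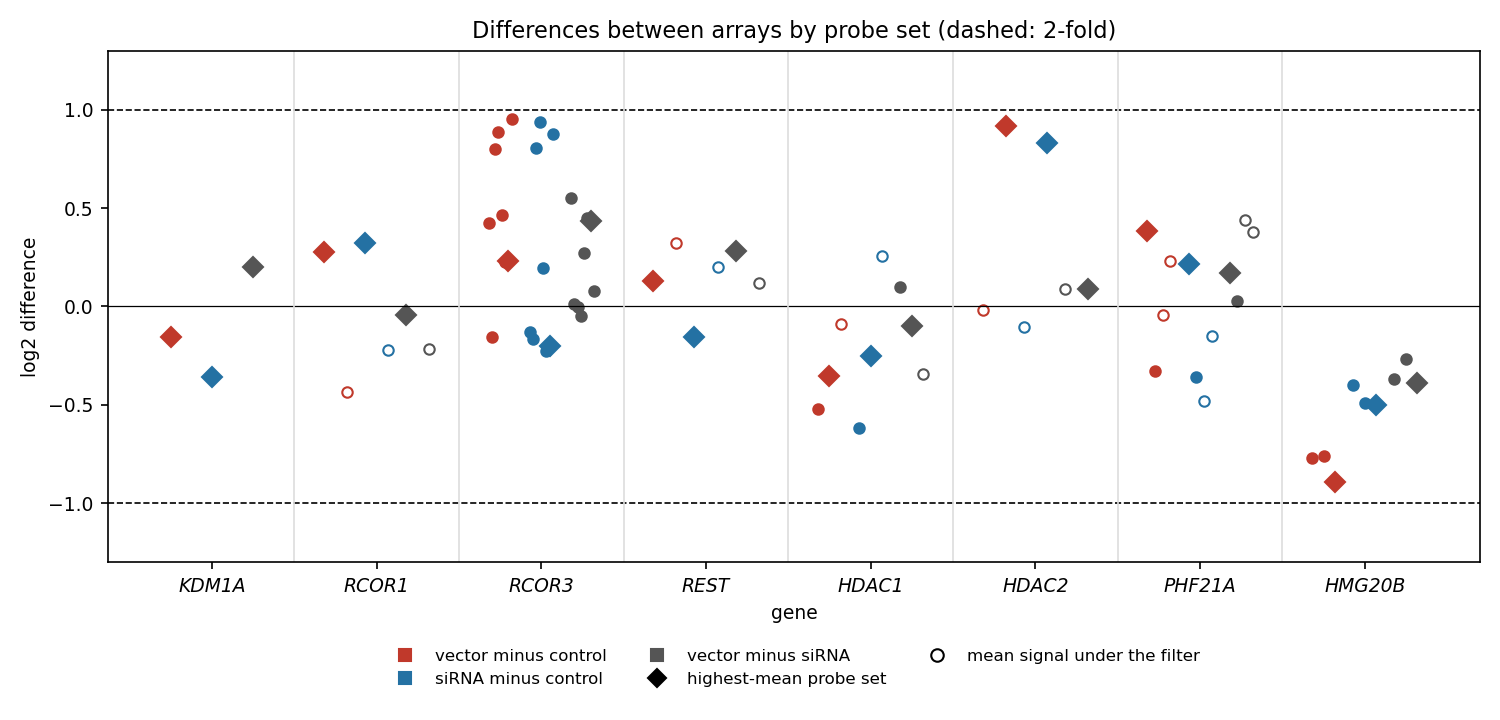
Log2 difference between arrays (vertical axis) for each probe set of the 8 genes (horizontal axis), with vector minus control in red, siRNA minus control in blue and vector minus siRNA in grey. No point passes the dashed 2-fold lines; 3 RCOR3 probe sets and the bright HDAC2 probe set come nearest above 0 in the comparisons with control, and the 3 HMG20B probe sets lie together below 0.

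HDAC1 and HDAC2 are closely related deacetylases that the SIN3, NuRD and CoREST complexes share, and here they lay on opposite sides of control. HDAC2 had log2 signals of 10.34 in vector, 10.25 in siRNA and 9.42 in control cells. The arms were within 0.087 of each other, and the control was lower than both. The differences were 0.92 for vector minus control (1.89-fold) and 0.83 for siRNA minus control (1.78-fold), which 19.8% and 23.4% of all genes kept matched or passed. Cyclic loess put the vector minus control difference at 1.01, and centring put it at 1.10 and the siRNA minus control difference at 1.0001, so HDAC2 passed 2-fold there, by little. Averaging its 2 probe sets gave 0.45 and 0.36 from control in vector and siRNA cells, under 1.5-fold, and repeated quantile normalization gave 0.81 and 0.75. The other HDAC2 probe set had 3.82, 3.73 and 3.84 in vector, siRNA and control cells, near the lower quartiles of these arrays (3.58, 3.62 and 3.72), and differed by no more than 0.10 from control.

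HDAC1 had log2 signals of 10.63 in vector, 10.74 in siRNA and 10.99 in control cells on its brightest probe set and 7.80, 7.70 and 8.32 on the next. On both the control was highest, with differences of -0.35 and -0.52 for vector minus control and -0.25 and -0.62 for siRNA minus control. The third HDAC1 probe set was dim and had 4.12, 4.46 and 4.21, with siRNA cells highest. Between the arms HDAC1 differed by -0.10 on the brightest probe set and 0.098 on the next. By its representing value HDAC1 was below control in both arms under the 5 alternatives, with vector minus control between -0.52 and -0.17 and siRNA minus control between -0.62 and -0.084. Of all genes kept, 66.7% were at least as far from 0 in vector minus control.

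The remaining subunits differed in how well their probe sets matched each other. HMG20B, which encodes the DNA-bending subunit BRAF35, had log2 signals of 7.53 in vector, 7.93 in siRNA and 8.42 in control cells. Its other probe sets had 7.53, 7.90 and 8.30, and 7.18, 7.44 and 7.94, in the same order. Each of the 3 thus put control highest and vector lowest. The mean over the 3 probe sets was -0.81 ± 0.073 (SD) in vector minus control, -0.46 ± 0.056 in siRNA minus control and -0.34 ± 0.068 between the arms. Probe sets of 1 gene share the labelled RNA and can share probes, and the names of 2 of these 3 end in _x_at, which marks possible cross-hybridisation; the third, without that ending, gave -0.76, -0.49 and -0.27. After repeated quantile normalization HMG20B passed 2-fold for vector minus control (-1.09). Of all genes kept, 20.9% were at least as far from 0 as its -0.89 for vector minus control, 49.3% as its -0.50 for siRNA minus control and 18.9% as its -0.39 between the arms.

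PHF21A, which encodes BHC80, a reader of histone tails, had 4 probe sets that split. The brightest had log2 signals of 9.26 in vector, 9.09 in siRNA and 8.87 in control cells, with the control lowest. The next had 6.22, 6.19 and 6.55, with the control highest. The vector minus control difference was 0.38 on the first and -0.33 on the next, so PHF21A has no settled direction against control. Between the arms all 4 probe sets were higher in vector cells, by 0.029 to 0.44, although the upper values come from the pair below the filter level.

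**Figure D3:**
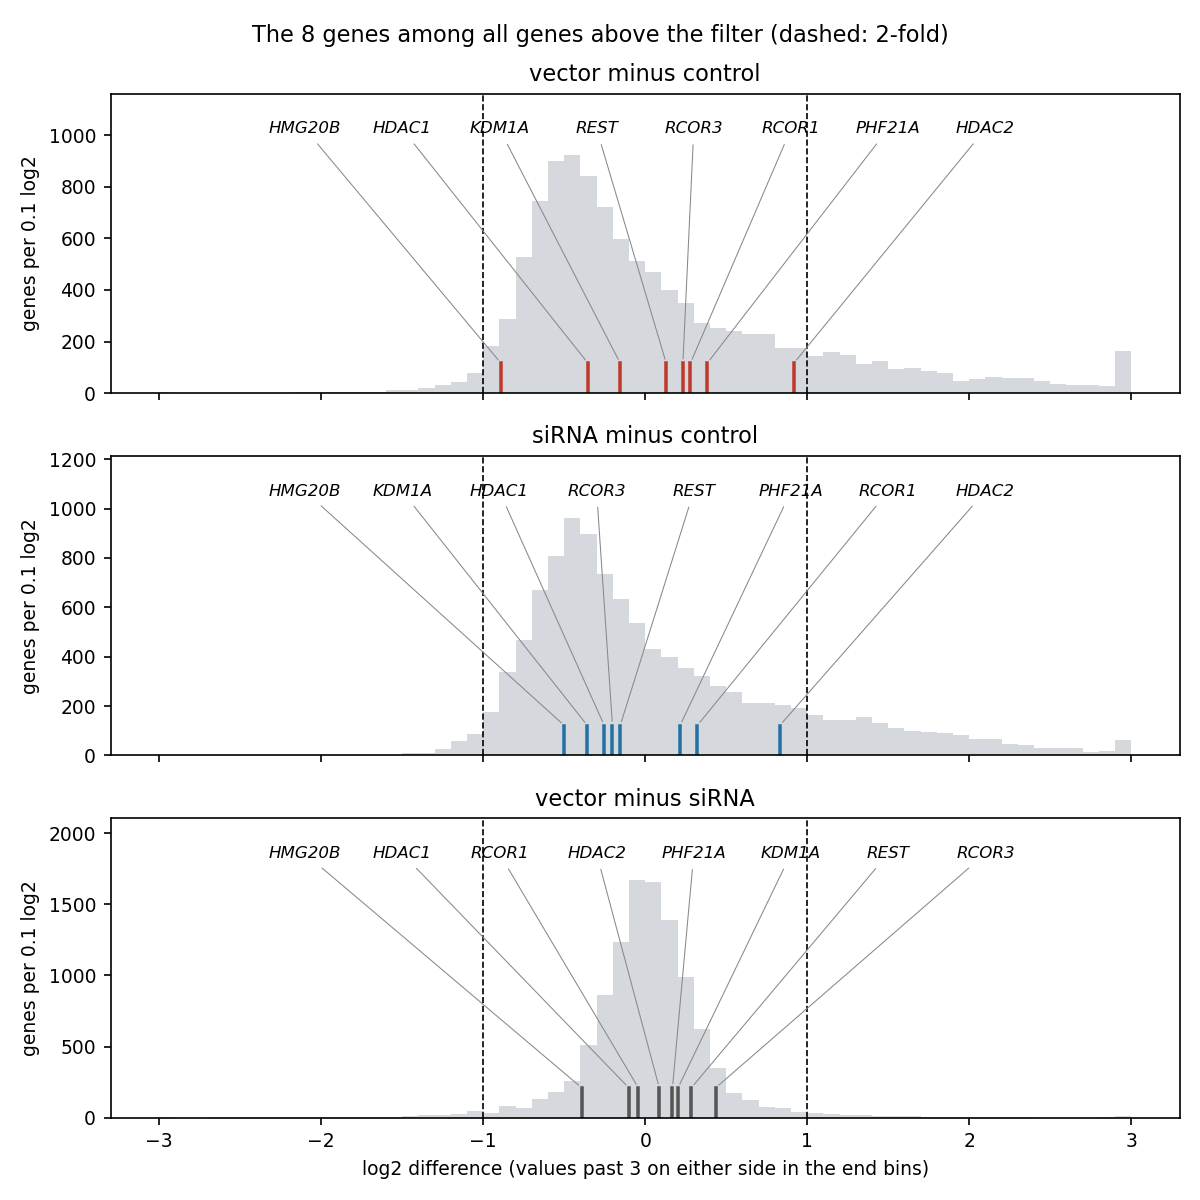
Number of genes per 0.1 of log2 difference (vertical axis) for the 10917 genes kept, in 3 panels for the 3 comparisons, with the 8 genes marked by coloured ticks and the 2-fold limits dashed. All 8 genes lie inside the limits in each panel, within -0.89 and 0.92.

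The genes whose pair of differences from control lay nearest to those of KDM1A, by Euclidean distance over vector minus control and siRNA minus control, were HNRNPUL2 (-0.16 and -0.35), CYB561D1 (-0.15 and -0.36) and ACTR8 (-0.15 and -0.37). Within a distance of 0.1 there were 274 of the genes kept. For REST the nearest were IPPK (0.14 and -0.16), SIRT5 (0.11 and -0.16) and TMEM167A (0.12 and -0.13), with 110 genes within 0.1. This likeness rests on 3 arrays.

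Other genes of the same machinery had a few members past 2-fold, mostly in both arms. Among 9 kept paralogues and partners of LSD1 and CoREST, vector cells had 1 above and 0 below control by 2-fold, and siRNA cells had 1 above and 1 below, where 15.2% and 14.9% of all genes were 2-fold higher and 2.05% and 1.85% lower. The higher gene was ZMYM2, a zinc finger subunit of LSD1 complexes, at 9.48 in vector, 9.54 in siRNA and 7.48 in control cells. Its differences from control were 2.0 and 2.06. Without probe sets ending in _x_at or _s_at they were 1.05 and 1.06, with a signal below the filter level, so ZMYM2 was not kept there. The lower gene was RCOR2, the third CoREST paralogue, at 6.61, 6.05 and 7.08 on 1 probe set. RCOR2 differed by -1.03 for siRNA minus control, or -0.78 after cyclic loess and -0.86 after centring, and by -0.47 for vector minus control. The 3 CoREST paralogues thus had different orders on these arrays by their representing probe sets, with control lowest for RCOR1, in the middle for RCOR3 and highest for RCOR2.

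HDAC1 and HDAC2 also serve other complexes. Of 13 kept SIN3 complex genes, ARID4B was higher than control by 2.32 in vector and 1.96 in siRNA cells (1.39 and 1.14 with the mean over probe sets). Without probe sets ending in _x_at or _s_at ARID4B had 1.46 and 1.15, with a signal below the filter level. In that setting RBBP4 was past 2-fold for siRNA minus control, at 1.49, against 0.087 by its representing probe set. BRMS1 stood at -1.17 in siRNA minus control, or just under 2-fold when probe sets were averaged (-0.998) or differences centred (-0.996). Of 10 NuRD genes, 0 were past 2-fold in any comparison, with GATAD2A (-0.59 and -0.75 in vector and siRNA minus control) and MTA2 (-0.63 and -0.55) the most different. Of 7 kept genes of MiDAC, other class I deacetylases and their corepressors, TBL1XR1, a subunit of the NCoR complexes, was higher than control by 2.27 in vector and 2.19 in siRNA cells (1.46 and 1.28 with the mean over probe sets). None of 6 kept chromatin enzymes that act with REST passed 2-fold, with EHMT2 at -0.49 and -0.58 and KDM5C at -0.35 and -0.54. The median vector minus control differences were -0.040 for SIN3, -0.42 for NuRD, -0.24 for MiDAC and related genes and -0.45 for the enzymes, against -0.18 for all genes. In siRNA minus control the medians were -0.047, -0.20, -0.21 and -0.35 in the same order, against -0.17. Between the arms they were 0.086, -0.012, -0.027 and -0.12, against 0.014. Between the arms 0 genes of these 4 lists passed 2-fold. Of all genes kept, 17.3% passed it in vector minus control, 16.7% in siRNA minus control and 3.58% between the arms.

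**Figure D4:**
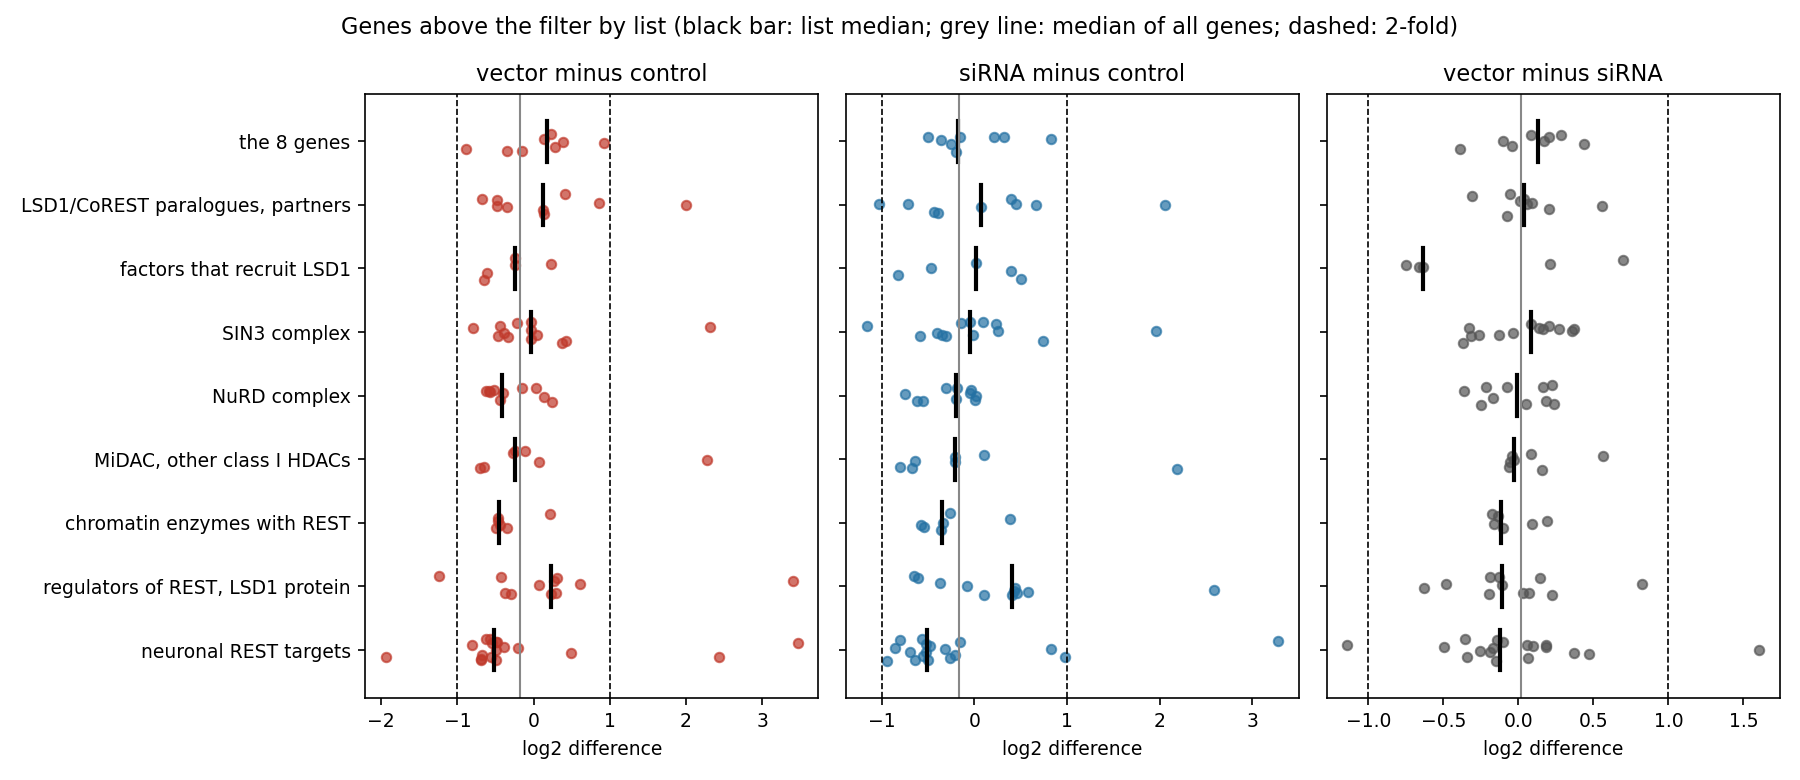
Log2 differences (horizontal axes) of the genes above the filter in each list (rows), with 1 point per gene, a panel for each comparison, the list median as a black bar and the median of all genes as a grey line. Each list has its points mostly inside the dashed 2-fold limits; ZMYM2, ARID4B, TBL1XR1, USP15 and SCN2A lie near or above 2 in the comparisons with control.

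Transcription factors that recruit LSD1 through a SNAG domain or related contacts were mostly dim. Of 12 measured, 5 were kept and 0 passed 2-fold in any comparison. The shares of all genes kept past 2-fold were 17.3% in vector minus control, 16.7% in siRNA minus control and 3.58% between the arms. SNAI2, a repressor of epithelial genes, had log2 signals of 9.80 in vector, 10.54 in siRNA and 10.04 in control cells, so the control lay between the arms, which differed by -0.75. OVOL2, a repressor that guards epithelial identity, had 7.61, 7.40 and 8.22 in the same order, with the control highest. The median of the 5 genes was -0.64 between the arms and 0.014 for all genes, but it was -0.035 when probe sets were averaged (4 genes kept), -0.043 for all 12 genes with no filter and -0.23 with the filter at the 75th percentile.

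REST binds the RE1 element in the genes it silences, so the sequences of that element are shown beside the levels of the genes that carry it. The core of RE1 was searched as CAGCACC, any 2 bases and GGACAG, on both strands, with at most 2 mismatches among the 13 fixed letters, in RefSeq promoters of 300 bases (GRCh38.p14, 250 bases before to 50 after each gene's start). The core was in 2.03% of all 35097 promoters, in 4 of 42 promoters of the neuronal REST target genes (27 of 40 genes matched the table) and in 0 of 12 promoters of the 8 genes themselves, all of which matched. The best matches are shown, with the letters of the core that match in capitals and 5 flanking bases on each side, together with the closest stretch of the REST promoters, which misses 3 letters. No match says only that these letters are not in this window.
SYN1: agcttCAGCACCgcGGACAGtgcct
GRIA2: cctttCAGCACCgaGGACAGcgcct
VGF: ggcttCAGCACgctGGACAGcgccc
TUBB3: gtcagCAGCcCCctGGcCAGcccca
REST: tgagtCAGCcCCggGGcCcGggcgg

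The SYN1 core lies at chrX:47620074-47620088 on the minus strand and the GRIA2 core at chr4:157220392-157220406 on the minus strand. Both lie before the start of the promoter in which they were found, while other GRIA2 starts lie upstream of that gene's core. The VGF core at chr7:101165561-101165575 on the plus strand spans the gene's start, and the TUBB3 core at chr16:89921813-89921827 on the plus strand lies before it. The REST stretch is at chr4:56908704-56908718 on the plus strand. A match is a description of the sequence and not evidence of binding in these cells.

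SYN1, the synapsin gene with a core of 0 mismatches, had log2 signals of 4.46 in vector, 4.70 in siRNA and 5.15 in control cells, below the filter level. GRIA2, a glutamate receptor gene also with 0 mismatches, had 3.92, 4.35 and 3.94 in the same order, again below it. VGF, a secreted neuropeptide precursor gene, had 5.44, 5.34 and 5.98, and the neuronal tubulin gene TUBB3, whose 1 probe set ends in _x_at and may take signal from related tubulins, had 6.58, 6.21 and 7.07. For SYN1, VGF and TUBB3 the control was highest, and for GRIA2 the siRNA array was. None of these 4 was 2-fold apart in any comparison, and the largest difference was -0.86, for TUBB3 in siRNA minus control.

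Of the 40 neuronal REST target genes, all were measured and 18 kept. In vector minus control 2 of the 18 were higher and 1 lower by 2-fold, beside 15.2% of all genes higher and 2.05% lower. In siRNA minus control 1 was higher and 0 lower, beside 14.9% and 1.85% of all genes. Between the arms 1 was higher and 1 lower in vector cells, where 1.73% of all genes were higher and 1.85% lower. Their medians were -0.52, -0.51 and -0.13 (all genes -0.18, -0.17 and 0.014), and -0.25, -0.22 and -0.11 after cyclic loess. The calcium buffer gene CALB1 had log2 signals of 11.98 in vector, 10.37 in siRNA and 9.54 in control cells, so that vector cells were highest, by 1.60 over siRNA and 2.43 over control cells. The light neurofilament gene NEFL had 7.31, 8.45 and 9.25 in the same order, with vector cells lowest, by -1.14 against siRNA and -1.94 against control cells (-0.55 and -0.70 without probe sets ending in _x_at or _s_at). The sodium channel gene SCN2A had 6.77, 6.58 and 3.30, with both arms above a control signal under the lower quartile of that array. Its differences of 3.47 and 3.28 were 0.66 and 0.88 without probe sets ending in _x_at or _s_at. GAD1, below the filter level, was also past 2-fold in vector minus control (-1.05, or -0.26 with the mean over its 3 probe sets). CALB1 and NEFL, the targets 2-fold apart between the arms by their representing probe sets, lay in opposite directions, while REST itself differed by 0.28. Between the arms CALB1 differed by 1.59 to 1.60 under the alternatives. NEFL depended on the probe sets used, with -1.01 for their mean and -0.55 without those ending in _x_at or _s_at. The dynamin gene DNM1 differed by -0.36 between the arms by its representing probe set and by -1.08 with the mean over probe sets. Without probe sets ending in _x_at or _s_at it differed by -1.64, with a signal below the filter level. Of the 6 neuronal markers, 2 of which are also in the list of REST targets, 2, 1 and 3 lay above the array median in vector, siRNA and control cells, with log2 summed signals of 9.28, 8.92 and 8.55. MAP2, which encodes a microtubule-associated protein, was the only one of the 6 above control in vector cells, at 8.99, 8.52 and 7.75 (1.23 for vector minus control, or 0.79 with its probe sets averaged). The other 5 lay below control there, by -0.89 for RBFOX3, -0.69 for SYN1, -0.37 for ELAVL3, -0.21 for SNAP25 and -0.098 for ELAVL4. The part of neuronal markers in these results was not tested.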

How the data were processed

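The authors deposited log2 signals per probe set, summarised with RMA per the submitters' processing notes. That the scale is log2 was read from the values, and the RMA version and settings are not given here. Of 49293 probe sets, 44988 had 1 gene symbol in the platform's annotation, 1832 several and 2473 none listed; 0 of the 8 genes lay on probe sets with several symbols. Genes were kept where the highest-mean probe set averaged at least 5.28 (10917 genes). Differences were called at 2-fold, with no test. Genes named from lists were those past 2-fold in any comparison, up to 6, or else the 2 most different among those kept. Outside this rule, GAD1, DNM1 and RBBP4 were named because they passed 2-fold without the filter or with other probe sets. SYN1, GRIA2, VGF and TUBB3 were named for their RE1 matches. The members, 8 lists (117 genes) and 6 marker lists were chosen with earlier results of these data known. Listed genes without a probe set of 1 symbol were not analysed here. Alternatives were 1.5-fold and 3-fold, no filter or the 75th percentile, the mean over probe sets, no _x_at or _s_at probe sets, repeated quantile normalization, cyclic loess (span 0.4, 3 cycles) and median centring. Steps were tested on simulated data. RefSeq promoters (GRCh38.p14) came from a supplied table. Python 3.11.15, numpy 2.4.6, pandas 2.3.3, matplotlib 3.10.9, R 4.3.3 and limma 3.58.1 were used.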

Additional observations from a re-analysis of the deposited data

How the results depend on the processing

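The number of the 8 genes past the threshold, 0 in each comparison, became 2 in vector minus control and 1 in siRNA minus control at 1.5-fold. In vector minus control it was 1 after repeated quantile normalization (HMG20B), 1 after cyclic loess (HDAC2) and 1 after centring (HDAC2), and in siRNA minus control 1 after centring (HDAC2); the cause was not tested. It stayed 0 between the arms under every alternative. All genes past the threshold numbered 1886, 1825 and 391 in vector minus control, siRNA minus control and vector minus siRNA. They numbered 4616, 4456 and 1057 at 1.5-fold, 922, 796 and 134 at 3-fold, and 1134, 1158 and 154 with the filter at the 75th percentile, which leaves fewer genes. With the mean over probe sets they numbered 1151 in siRNA minus control and 228 between the arms. In vector minus control they numbered 1962 of 10918 genes kept after repeated quantile normalization. There they numbered 2013 of 10917 (18.4%) after cyclic loess and 2083 of 10917 (19.1%) after centring. In siRNA minus control they numbered 2027 of 10917 (18.6%) after centring. A count of 1 among the 8 genes in these settings is thus not far from the background. Of 117 differences of the 8 genes under alternatives, 110 moved by less than the spread between probe sets and 7 by more, for HDAC2, RCOR3 and PHF21A. That spread exceeded many of the differences from control themselves, so a value that moved by less could still change sign. REST did so in 3 of 5 alternatives for siRNA minus control. KDM1A has no value without probe sets ending in _x_at or _s_at. No paired analysis was possible because each group has 1 array. Signal over background limits REST and the dim probe sets of RCOR1, HDAC1, HDAC2 and PHF21A.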

Other observations

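Regulators of REST and LSD1 protein were not described above. Of 11 kept genes, USP15, a deubiquitinase reported to act on REST, had log2 signals of 8.55 in vector, 7.73 in siRNA and 5.14 in control cells, with the control below the filter level. Its differences from control of 3.41 and 2.58 came to 1.05 and 0.67 with the mean over its 7 probe sets, which lay below the filter level. SRRM3, a splicing regulator of neural microexons, had 5.69, 6.32 and 6.93 in the same order and was lower in vector than in control cells (-1.24, or -0.97 after cyclic loess) on 1 probe set. The other 9 genes were within 2-fold in all 3 comparisons. Past 2-fold were 17.3% of all genes kept in vector minus control, 16.7% in siRNA minus control and 3.58% between the arms. The median of the 11 was 0.23 for vector minus control and 0.40 for siRNA minus control, and -0.34 and -0.35 when probe sets were averaged, where 9 genes were kept.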
